A study of Rattus norvegicus with 8 samples.

Results

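Genes for heat shock proteins, for the folding machinery of the endoplasmic reticulum (ER) and for the response to ER stress were compared between the kidneys of rats fed a high-phosphorus (HP) diet and of rats fed a control diet. The list held 45 genes. A gene counted as measured where the array had at least 1 probe set, a group of short probes read as a single value, that carried its symbol and no other. This gave 59 probe sets for 41 of the 45 genes, among 14217 genes measured in the same way on the whole array. Of these genes, 28 had 1 probe set and 13 had several, up to 4. Hspa1b, Hspa8 and Hsp90aa1 were not measured, because their 4 probe sets are assigned to several genes, and Ern1 was not measured, because no probe set carried its symbol.

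The HP rats and the control rats were male Wistar rats aged 8 weeks, with 4 arrays for each diet and 1 rat for each array. The HP diet held 1.2% phosphorus and the control diet, AIN-93G, held 0.3%, and each was fed for 24 days. In the HP diet KH2PO4 took the place of corn starch, so potassium was added with the phosphorus. The authors had chosen the rats as average ones of larger groups, by urine volume and by the phosphorus content of the kidney. RNA came from kidney tissue as a whole, in which fewer cells of a type and less RNA for each cell cannot be told apart.

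Heat shock proteins are chaperones that hold, refold or pass on unfolded proteins. In the cytosol their genes are switched on by heat shock factors, of which Hsf1 is the main one, through heat shock elements in the promoter. In the ER, unfolded proteins act on the sensors PERK (Eif2ak3), ATF6 (Atf6) and IRE1 (Ern1), and the unfolded protein response that follows raises ER chaperones, proteins that remove misfolded proteins from the ER, and, through the translation factor eIF2 and the transcription factor ATF4, genes of amino acid supply. Proximal tubule cells of the kidney take up and turn over large amounts of protein and are known to mount this response in injury.

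The values used are logarithms as the authors deposited them, of a base that is not given and that was read as 2. The distribution free weighted method (DFW), with which they were made, narrows the spread of each probe set, and the median SD within groups over all probe sets was 2.22e-06. A difference between diets in these values is therefore not a fold change. Below, each array is given as its deviation from the mean of the 8 arrays, in millionths of a log2 unit (1e-06), and each difference as HP minus control with its SE. The standardized difference is that difference divided by the SD within groups. Levels of different probe sets were not set against each other.

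Of these genes, 1 passed the test between diets, and most had means below control on the HP diet. By limma with an adjusted p under 0.05, no probe set of the 59 was higher on the HP diet (2.95% of all 31042 probe sets tested were) and 1 was lower, 1.69% of them (1.13% of all). The 1 that fell was Dnajc3. At an unadjusted p under 0.05, 2 probe sets were higher, 3.39% (9.53% of all), and 12 were lower, 20.3% (9.45% of all). In 2 probe sets the lowest HP array was above the highest control array, 3.39% (7.09% of all), and in 7 the highest HP array was below the lowest control array, 11.9% (5.81% of all). Rank products, the test in the methods of the study, called 1 higher, 1.69% (3.40% of all), and 6 lower, 10.2% (2.31% of all), with none of the 59 called by both tests. The mean was lower on the HP diet in 44 of 59 probe sets, 74.6%, and in 57.7% of all probe sets. The median standardized difference was -0.86 for the 59 probe sets and -0.21 for all. These counts moved with the scaling of the arrays. The array medians ran from 7.056220 to 7.056405, a spread far above the median SD within groups of 2.22e-06. Centring moved the median difference of all probe sets from -0.224 to -61.3 millionths of a log2 unit. All probe sets called by limma fell from 915 higher and 350 lower to 78 and 19. Centring shifts every probe set of an array by the same amount. A call lost or a sign turned by centring was thus not particular to these genes. With each array centred on its median, 58 of the 59 means and 97.3% of all were below control, the medians were -0.96 and -0.94, and none of the 59 was lower at an unadjusted p under 0.05. After quantile normalization 20 of the 59 means were below control, 37 were level and 2 were above. With each array left out in turn, the count of 12 was 5 to 11, with 5 without control replicate 1 or control replicate 2 and 7 without HP replicate 1 or HP replicate 2, while 40 to 44 of the 59 means were below control. Among all probe sets, 2932 were lower at that unadjusted p, and 2323 to 2875 with each array left out. Of all means, 55.4% to 57.8% were then below control.

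Cytosolic and ER genes had close medians, and the difference between them was not tested. The 17 cytosolic probe sets (11 of 14 genes) had a median standardized difference of -0.89, with 13 means below control, and the 28 ER probe sets (21 of 22 genes) had -0.96, with 21 below. The 6 mitochondrial probe sets of 3 genes had a median of -1.07, and all 6 means were below control. Within the ER, the 19 probe sets of folding genes had a median of -1.0, the 6 of ER-associated degradation -0.65 and the 3 of the sensors -1.06. The 8 probe sets of the PERK and ATF4 branch had a median of 0.20, with 4 means below control and a range of -0.88 to 2.83. Without HP replicate 3 that last median was -0.11, so its sign rested on 1 array.

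**Figure D1:**
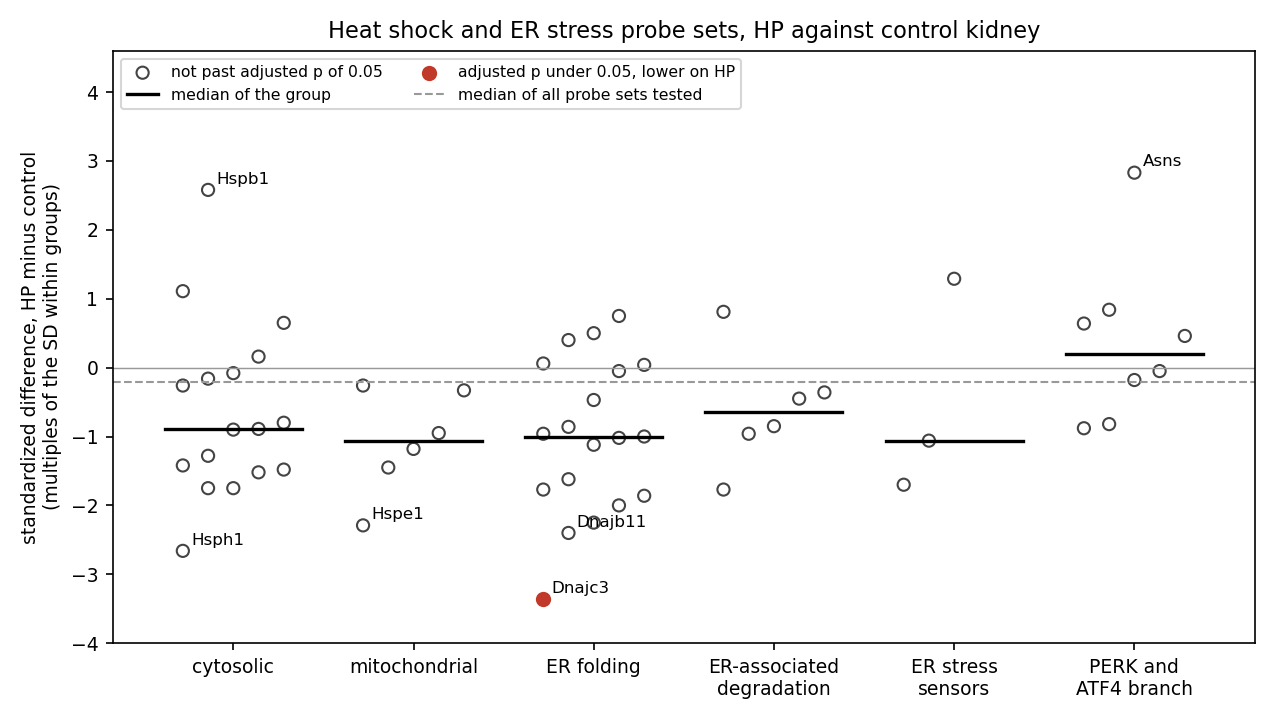
Standardized difference, HP minus control, in multiples of the SD within groups, for each of the 59 probe sets by place and role of the protein. The bars are group medians, the dashed line is the median of all probe sets tested (-0.21), and the filled point is Dnajc3, the single probe set past the adjusted p of 0.05. Asns and Hspb1 were the highest, and both had an opposite sign after quantile normalization (Hspb1 also after centring of the arrays).

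By array, the low values were not shared evenly by the HP rats. The median deviation over the 28 ER probe sets, in multiples of the SD within groups, was -0.907, -0.768, 0.376 and -0.667 in HP replicates 1 to 4, against 0.512, 0.650, 0.021 and 0.144 in control replicates 1 to 4. HP replicate 3 thus stood with the control arrays. Over the 17 cytosolic probe sets the medians were -0.473, -0.778, -0.294 and -0.433 on the HP diet, against 0.641, 0.970, 0.512 and -0.625 on the control diet. Here it was control replicate 4 that stood with the HP arrays. Over the 6 mitochondrial probe sets the medians were -1.248, -0.786, 0.470 and -0.541 on the HP diet, against 1.460, 0.322, 0.206 and 0.499 on the control diet, and HP replicate 3 again lay within the control range. Leaving out HP replicate 3 moved the ER median standardized difference from -0.96 to -1.28 and the mitochondrial median from -1.07 to -1.54. Leaving out control replicate 4 moved the cytosolic median from -0.89 to -1.20. Other omissions made the medians smaller in size. Without HP replicate 1 the ER median was -0.69 and the mitochondrial median -0.74, and without control replicate 1 the cytosolic median was -0.67. Over all probe sets the array medians were between -0.206 and -0.011 on the HP diet and between -0.038 and 0.137 on the control diet.

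**Figure D2:**
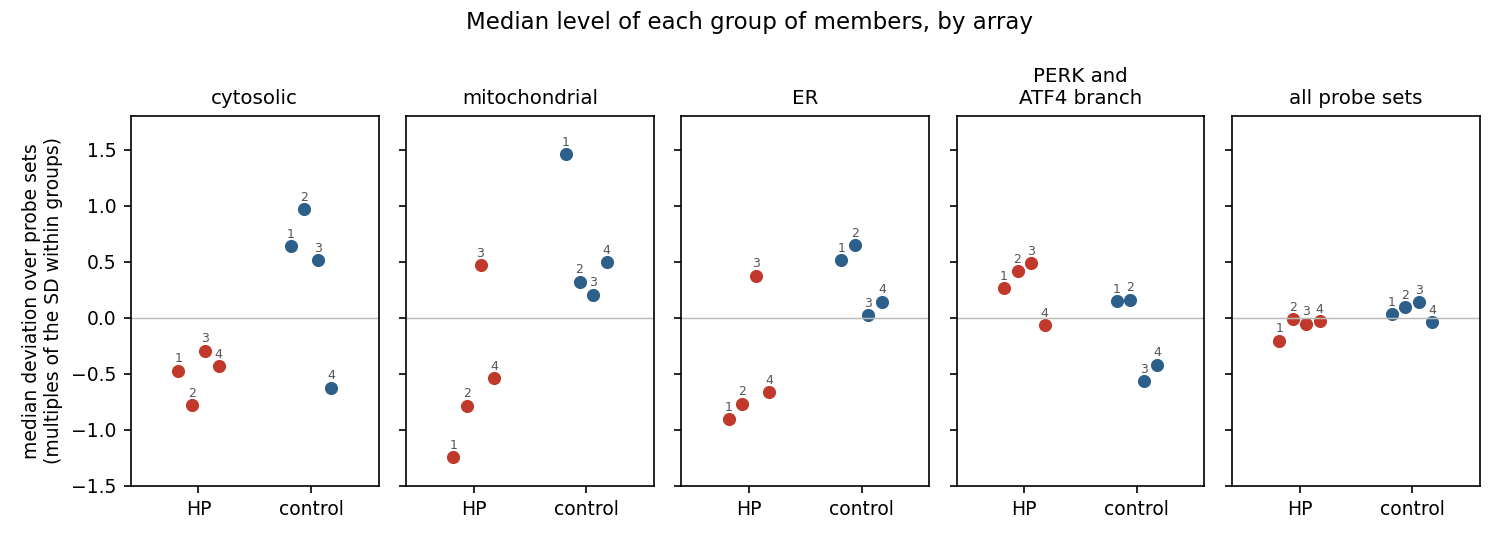
Median deviation from the mean of the 8 arrays, in multiples of the SD within groups, over the probe sets of each group, with 1 numbered point for each HP and each control array. HP replicate 3 lies among the control arrays in the mitochondrial and ER panels, and control replicate 4 lies among the HP arrays in the cytosolic panel.

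Among the ER folding genes, 1 of 19 probe sets passed. Dnajc3, which encodes the ER co-chaperone p58IPK, also known to inhibit PERK, was lower on the HP diet. Its deviations were -13, -5.64, -3.43 and -12.3 in HP kidneys, against 8.83, 0.959, 11.2 and 13.4 in control kidneys, so the diets did not overlap. The difference was -17.2 (SE 3.61), a standardized difference of -3.36, with an adjusted p of 0.0449 by limma and an exact two-sided permutation p of 0.0286, the smallest that 4 against 4 arrays allow. This call was close to the threshold. The adjusted p was 0.0573 to 0.119 without any single HP array or without control replicate 1, 3 or 4, and 0.0436 without control replicate 2. It was 0.0758 without moderation of the variance, 0.975 with the arrays centred on their medians and 0.6 after quantile normalization, and rank products gave an FDR of 0.0895.

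Hspa5 encodes BiP, the main HSP70 of the ER lumen, which keeps the sensors inactive. Its deviations were -12, -43.8, -6.71 and -4.04 in HP kidneys, against 33, 29.6, 6.14 and -2.19 in control kidneys. The HP arrays were all lower than the control arrays, although HP replicate 4 and control replicate 4 were close together. The difference was -33.3 (SE 12.6), which did not pass limma (adjusted p = 0.196, exact permutation p = 0.0286) and was called lower by rank products (FDR 0.0331). Dnajb11, the ERdj3 co-chaperone of BiP, was at -5.64, -12.2, 0.514 and -3.6 in HP kidneys, against 5.98, 1.92, 9.25 and 3.75 in control kidneys. The diets did not overlap, but the difference of -10.5 (SE 3.08) had an adjusted p of 0.113 by limma. Creld2, an ER protein with disulfide isomerase activity, was at -36.5, -15.7, 5.72 and -15.5 in HP kidneys, against 10.2, 29, 11.8 and 11 in control kidneys. Its difference of -31 (SE 9.72) had an adjusted p of 0.129 by limma and an FDR of 0.0322 by rank products. In both Dnajb11 and Creld2 the highest HP array was replicate 3. With each array left out in turn, the adjusted p by limma ran from 0.0814 to 0.235 for Dnajb11. For Creld2 it ran from 0.0623 to 0.238, and the lowest value of both was without HP replicate 3.

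The other ER folding genes showed smaller or mixed differences. Hyou1, the large HSP70 of the ER, was measured by 2 probe sets with standardized differences of -2.0 (adjusted p = 0.182 by limma) and 0.06. The protein disulfide isomerase Pdia3 also had 2 probe sets, at -1.77 (adjusted p = 0.221 by limma) and -0.47. These pairs of probe sets of 1 gene thus differed in size, and none passed. Manf, a secreted ER stress protein, was at -1.62, the lectin chaperone Calr at -1.12, Hsp90b1 (GRP94, the HSP90 of the ER) at -1.02, Pdia4 at -0.96 and Sdf2l1 at -0.86. Canx, the membrane-bound lectin chaperone, had 3 probe sets at -1.0, 0.04 and 0.40. Pdia6 was at -0.05, Dnajb9, the co-chaperone ERdj4, at 0.50 and P4hb, protein disulfide isomerase itself, at 0.75. None of these passed limma.

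In ER-associated degradation, Herpud1 had the largest difference. Herpud1 helps assemble the membrane complex that exports misfolded proteins. It was at -52.9, -2.85, 17.4 and -53.5 in HP kidneys, against 15, 32, 18 and 27 in control kidneys. Only HP replicate 3 reached into the control range. The difference was -46 (SE 18.4) with an adjusted p of 0.218 by limma and an FDR of 0.0262 by rank products. With each array left out in turn, the adjusted p by limma ran from 0.0959, without HP replicate 3, to 0.375, without HP replicate 1. Sel1l, the adaptor of the same complex, had a difference of -0.707 (SE 0.52), from -0.749, -1.35, 0.686 and 0.003 in HP kidneys, against -0.154, 0.654, -0.049 and 0.962 in control kidneys. The ubiquitin ligase of that complex, Syvn1, was at a standardized difference of 0.81. Edem1, which draws misfolded glycoproteins into degradation, had 3 probe sets between -0.85 and -0.36. Its probe set with the smallest p was at -8.44, 2.83, -1.21 and -6.05 in HP kidneys, against -0.801, -3.88, 0.296 and 17.2 in control kidneys, so the high mean of the control group came from replicate 4.

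Of the sensors, Atf6 and Eif2ak3 differed in sign and neither passed. Atf6 encodes the membrane-bound transcription factor that is cut free in ER stress. Its first probe set was at -4.46, -7.32, -2.41 and 0.286 in HP kidneys, against 1.44, 4.63, 9.54 and -1.7 in control kidneys, with a difference of -6.96 (SE 2.89, adjusted p = 0.235 by limma). Its second was at -1.48, -0.317, 1.35 and -1.88 in HP kidneys, against 0.171, 0.109, 0.756 and 1.29 in control kidneys. Both Atf6 probe sets overlapped between the diets. Eif2ak3, the kinase PERK, was at 18.5, 16.7, -9.97 and 5.38 in HP kidneys, against 5.33, -14.9, -17.6 and -3.5 in control kidneys. Its difference was 15.3 (SE 8.44, adjusted p = 0.363 by limma), and it turned to -45.7 when each array was centred on its median.

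**Figure D3:**
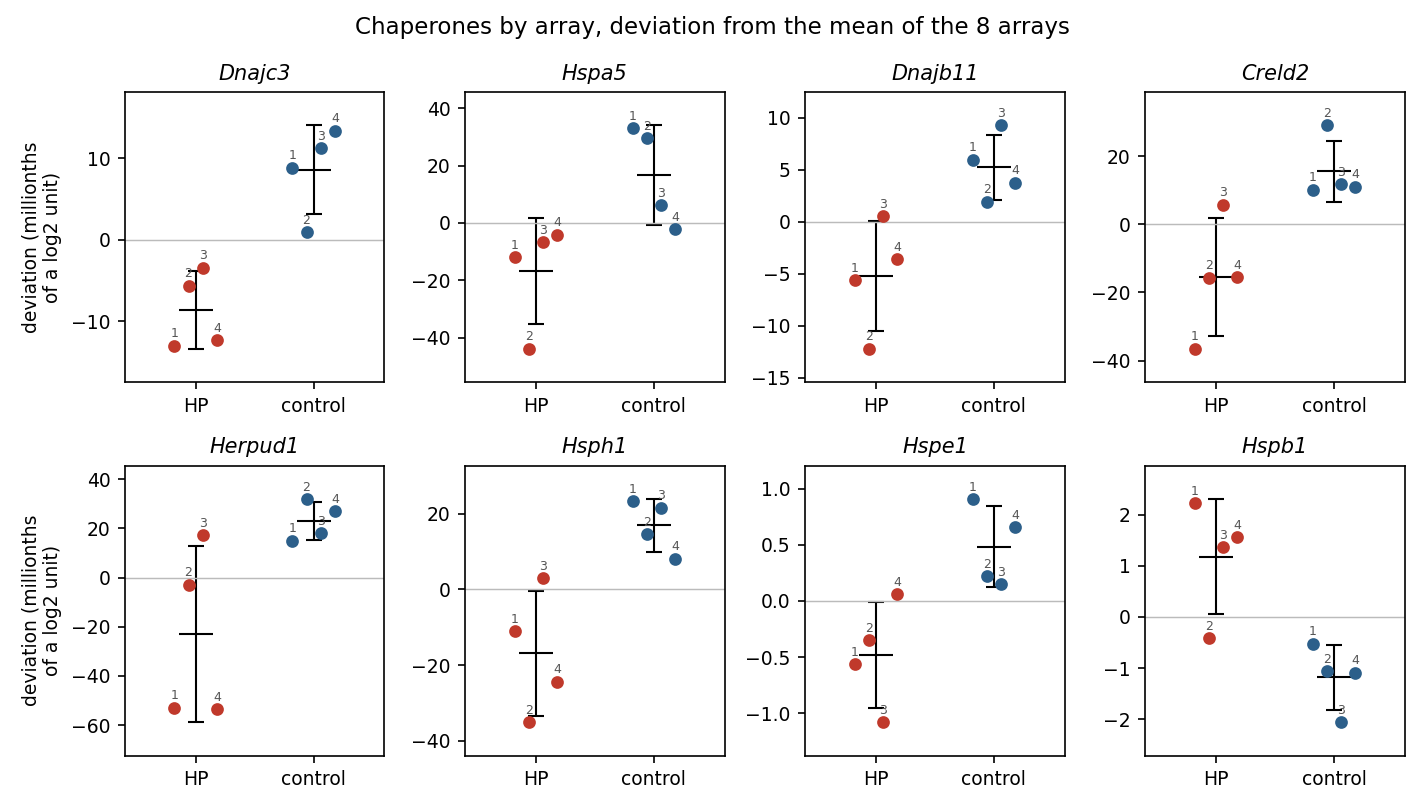
Deviation from the mean of the 8 arrays, in millionths of a log2 unit, of 8 chaperone and ER genes, with 1 numbered point for each array and the mean and SD of each diet as bars. The scale differs between panels. HP lay below control without overlap in Dnajc3, Hspa5, Dnajb11, Creld2, Hsph1 and Hspe1, HP replicate 3 reached into the control range in Herpud1, and HP lay above control in Hspb1, whose sign turned with centring of the arrays and with quantile normalization.

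Among the cytosolic genes, Hsph1 and Hspb1 lay at opposite ends. Hsph1 encodes HSP105, a large HSP70 relative that recharges HSP70 with ATP. One of its probe sets was at -11, -35.1, 2.99 and -24.4 in HP kidneys, against 23.3, 14.5, 21.6 and 8.06 in control kidneys, with no overlap. The difference was -33.7 (SE 8.97), with an adjusted p of 0.087 by limma and an FDR of 0.022 by rank products. Without HP replicate 3 the adjusted p by limma was 0.0428, the 1 array whose removal made it pass. The highest was 0.194, without control replicate 3. The other Hsph1 probe set was at -10.3, -27.6, -1.55 and -19.4 in HP kidneys, against 29.2, 28.6, 16.6 and -15.5 in control kidneys. Its difference of -29.4 (SE 11.9) had the same sign and size and an adjusted p of 0.223 by limma, with control replicate 4 among the HP arrays. Hspb1, the small heat shock protein HSP27, was at 2.22, -0.414, 1.36 and 1.56 in HP kidneys, against -0.524, -1.06, -2.06 and -1.09 in control kidneys. Its difference was 2.37 (SE 0.648, adjusted p = 0.116 by limma), and it became -58.7 after centring of the arrays and -175 after quantile normalization.

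The remaining cytosolic members were mostly below control without passing limma. Bag3, a co-chaperone that links HSP70 to autophagy, was at -1.03, -0.963, -1.63 and -0.905 in HP kidneys, against 0.423, 1.65, 3.35 and -0.889 in control kidneys. The diets did not overlap, but the lowest control array was all but level with the highest HP array (adjusted p = 0.241 by limma). Rank products called 2 more lower, Cryab (alpha B-crystallin, a small heat shock protein rich in the renal medulla) with a standardized difference of -1.52 and an FDR of 0.0227, and 1 of 2 probe sets of Hsp90ab1, the constitutive cytosolic HSP90, with -1.48 and an FDR of 0.048. The other Hsp90ab1 probe set was at -0.16. The HSP40 co-chaperones Dnaja1 and Dnajb1 had 2 probe sets each, at -0.89 and -1.28 for Dnaja1 and at -0.80 and -1.42 for Dnajb1. Hspa4, another HSP70 relative, was at -0.90, and the 2 probe sets of Hspb8, the partner of Bag3, were at -0.26 and -0.08. Hspa2 had probe sets at 0.16 and 0.65, and the transcription factor Hsf1 was at 1.11.

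The mitochondrial chaperones had means below control in all 6 probe sets, 4 of them of Hspa9, and 57.7% of all probe sets were below control. The smallest difference, of an Hspa9 probe set, was -0.045 (SE 0.0959). Without HP replicate 2, HP replicate 4 or control replicate 1, 5 of the 6 were below. Hspe1 encodes the lid HSP10 of the mitochondrial chaperonin. It was at -0.561, -0.351, -1.08 and 0.0588 in HP kidneys, against 0.909, 0.219, 0.149 and 0.659 in control kidneys, without overlap, and its difference was -0.967 (SE 0.298, adjusted p = 0.243 by limma). Hspd1, the chaperonin HSP60 itself, was at a standardized difference of -1.18 (adjusted p = 0.813 by limma). Hspa9, the mitochondrial HSP70, had 4 probe sets between -1.45 and -0.26. Its probe set with the smallest p was at -2.9, -4.03, 1.31 and -1.57 in HP kidneys, against 4.75, -1.62, 1.45 and 2.61 in control kidneys (adjusted p = 0.312 by limma), and the next was at -3.38, 0.17, -1.49 and 1.19, against 0.765, 3.26, -0.0719 and -0.451 in control kidneys. Both overlapped between the diets.

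The promoters of these genes show which of them carry the textbook stress elements, and they are given because the lowest values of the list were those of genes that carry one. RefSeq promoter windows of the rat assembly GRCr8, 250 bases before to 50 after the annotated start, were held for 36 of the 45 genes. They were searched on both strands. A gene counted where any of its windows held the element (Hyou1 had 2 windows), so shares of genes and shares of windows are in unlike units. The ER stress element was written as CCAAT, any 9 bases, CCACG, and was found in 0.0657% of all 33469 windows. It was in 6 of the 36 genes, Hspa5, Hsp90b1, Dnajc3, Creld2, Calr and Canx. The ER stress element II was written as ATTGG, any base, CCACG, found in 0.0508% of windows, and was in 3 of the 36, Hyou1, Dnajb11 and Herpud1. The windows of Dnajc3 (chr15:102432514-102432572, plus strand), Hspa5 (chr3:38452953-38453011, plus strand), Creld2 (chr7:121789219-121789277, plus strand, match on the other strand), Dnajb11 (chr11:91672780-91672830, minus strand) and Herpud1 (chr19:10614801-10614851, minus strand) are shown because these are among the ER genes with the lowest values. The matched bases are in capitals, including those that could be any base, with overlapping matches joined.
Dnajc3: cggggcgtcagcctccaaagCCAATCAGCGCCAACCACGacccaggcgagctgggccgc
Hspa5: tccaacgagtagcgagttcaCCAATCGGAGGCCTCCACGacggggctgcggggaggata
Creld2: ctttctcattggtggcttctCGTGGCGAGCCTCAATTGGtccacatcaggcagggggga
Dnajb11: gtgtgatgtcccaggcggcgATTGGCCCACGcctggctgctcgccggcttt
Herpud1: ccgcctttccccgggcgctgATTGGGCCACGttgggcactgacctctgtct

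The heat shock element was written as 3 units, GAANNTTC followed after any 2 bases by GAA, or TTCNNGAA followed after any 2 bases by TTC. It was found in 0.798% of all windows and in 5 of the 36 genes, Hsph1, Dnaja1, Hspd1, Hspe1 and the unmeasured Hspa8. The windows of Hsph1 (chr12:10427312-10427364, plus strand) and Hspe1 (chr9:64084242-64084299, plus strand) are shown as those of the cytosolic and the mitochondrial gene with the lowest values. Hspd1 and Hspe1 are neighbours read in opposite directions, and their windows share the same match, which lies 65 to 48 bases before the start of Hspe1.
Hsph1: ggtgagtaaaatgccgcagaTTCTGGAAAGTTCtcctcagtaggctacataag
Hspe1: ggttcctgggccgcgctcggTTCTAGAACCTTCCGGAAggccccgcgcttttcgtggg

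The shorter elements were found in few or none of these genes, though the UPR element was in a higher share of these genes than of all windows. The UPR element TGACGTGG, in 0.595% of all windows, was in 2 of the 36 genes, 5.56%, Bag3 and Hyou1. In Hyou1 it overlapped a match to the ER stress element II. The ATF4 element TGATGCAAT, in 0.188% of all windows, was in none of the 36 genes, Asns included. A match is a stretch of letters and not a shown binding site.

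Set beside the arrays, genes with an element had lower medians than genes with neither. The 12 probe sets of the 9 genes with either ER stress element had a median standardized difference of -1.44, with 9 means below control and 6 lower at an unadjusted p under 0.05. The 6 probe sets of the 4 measured genes with a heat shock element had a median of -1.51, with 6 below and 3 lower at that p. The 33 probe sets of the 22 measured genes with a window and neither element had a median of -0.26, with 22 below, 1 lower and 2 higher at that p. The 8 probe sets of genes without a window were also low, with a median of -1.29 and 7 below. In that order, the shares below control were 75%, 100%, 66.7% and 87.5%. Of all probe sets tested, 57.7% were below control, and 9.45% were lower and 9.53% higher at that p. HP arrays all lay below control in 7 of the 59 probe sets, 11.9% (5.81% of all). Of these 7, 4 had an ER stress element, 2 a heat shock element and 1, Bag3, neither. With each array left out in turn, the medians ranged from -1.71 to -1.26 for the ER stress elements, from -2.10 to -1.22 for the heat shock element and from -0.42 to -0.24 for neither. With the arrays centred on their medians, the sets were at -1.01, -0.99 and -0.94, beside -0.94 for all probe sets. Centring shifted all probe sets alike, by far more than the median SD within groups, so the sets cannot be compared after it. The difference between the sets was not tested. The elements were shown because low genes carry them, so these medians restate the same values and are no separate support. All 8 probe sets of the PERK and ATF4 branch (median 0.20) were in the set with neither, so element and role are mixed.

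**Figure D4:**
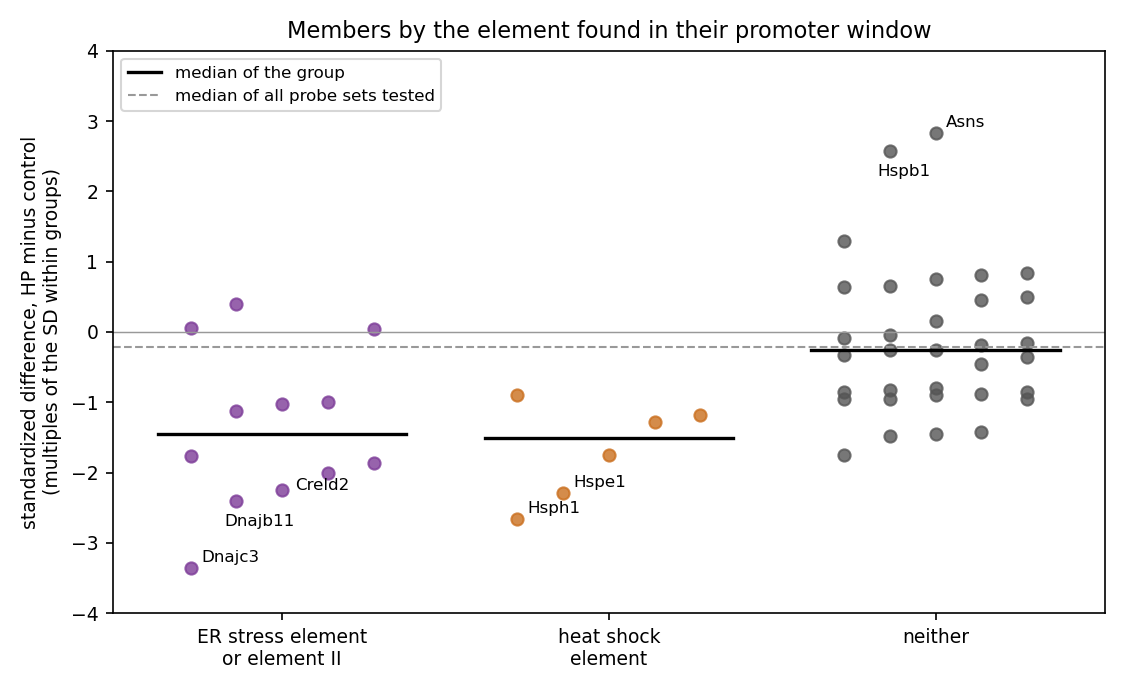
Standardized difference, HP minus control, in multiples of the SD within groups, of member probe sets by the element found in the promoter window of the gene. The bars are medians (-1.44, -1.51 and -0.26), and the dashed line is the median of all probe sets tested (-0.21). Centring of the arrays shifted all probe sets alike and brought the sets and all probe sets to close medians, so the sets cannot be compared after it.

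None of the 8 probe sets of the PERK and ATF4 branch passed limma. Asns, asparagine synthetase and a known ATF4 target, was at 24.5, 99.6, 34.1 and 15.8 in HP kidneys, against -43.3, -25.7, -32.3 and -72.6 in control kidneys, with no overlap. The difference was 87 (SE 21.7), a standardized difference of 2.83, with an adjusted p of 0.0725 by limma (0.0596 to 0.15 with each array left out in turn), and rank products called it higher (FDR 0.0102). After quantile normalization it was -136. Atf4 itself was at 23.1, 15.1, -40.2 and -57 in HP kidneys, against 18.7, 57.6, -6.27 and -11 in control kidneys. Its difference was -29.5 (SE 25.3, adjusted p = 0.581 by limma). Ddit3, the pro-apoptotic factor CHOP, was at 5.81, 5.71, -17 and -19.6 in HP kidneys, against 9.35, 24.9, -8.95 and -0.231 in control kidneys, with a difference of -12.5 (SE 10.1, adjusted p = 0.55 by limma). Within each diet, replicates 1 and 2 were the high arrays for both Atf4 and Ddit3, so these genes varied more between arrays of 1 diet than between the diets. Whether this spread lay between rats or went with the replicate number was not tested. Blocking on that number in limma brought Atf4 to an adjusted p of 0.259 and Ddit3 to 0.197, and neither passed. Ppp1r15a, the phosphatase subunit GADD34 that reverses eIF2 phosphorylation, was at a standardized difference of 0.46. The 3 probe sets of the pseudokinase Trib3 were at 0.64, -0.18 and 0.84, and Chac1, a glutathione-degrading ATF4 target, was at -0.05.

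Other genes of the integrated stress response, the wider pathway that meets at eIF2 and ATF4, gave 42 probe sets (31 of 33 genes measured). By limma 2 rose, 4.76% (2.95% of all), and 2 fell, 4.76% (1.13% of all). At an unadjusted p under 0.05 by limma, 3 were higher, 7.14% (9.53% of all), and 8 lower, 19% (9.45% of all). Rank products called 2 higher, 4.76% (3.40% of all), and 3 lower, 7.14% (2.31% of all). The mean was below control in 26 of the 42, 61.9% (57.7% of all). Atf3, an ATF4-induced transcription factor, was at 428, 497, 156 and 133 in HP kidneys, against -362, -247, -147 and -458 in control kidneys (adjusted p = 0.0339 by limma). Eif2ak2, the double-stranded RNA kinase PKR, was at 3.74, 3.61, 0.965 and 1.52 in HP kidneys, against -1.43, -3.47, -2.68 and -2.26 in control kidneys (adjusted p = 0.0289 by limma), and its difference of 4.92 became -56.1 after centring and -21.2 after quantile normalization. Psat1, an enzyme of serine synthesis and an ATF4 target, fell, at -7.25, -15.2, -12.1 and -2.97 in HP kidneys, against 14.6, 11.2, 10.7 and 1.06 in control kidneys (adjusted p = 0.0455 by limma). Aars1, alanyl-tRNA synthetase, fell as well, at -4.84, -28.2, -26.3 and -19.2 in HP kidneys, against 20.1, 13.5, 33.9 and 11.1 in control kidneys (adjusted p = 0.033 by limma). Among the 4 called by limma, known targets of ATF4 thus lay on either side. Each of these 4 calls was lost without 1 or more arrays, in 6 of 8 cases for Atf3 and in 7 of 8 for the others. All 4 were lost with the arrays centred on their medians (adjusted p = 0.975 by limma), and after quantile normalization the differences of Psat1 and Aars1 were 0.

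**Figure D5:**
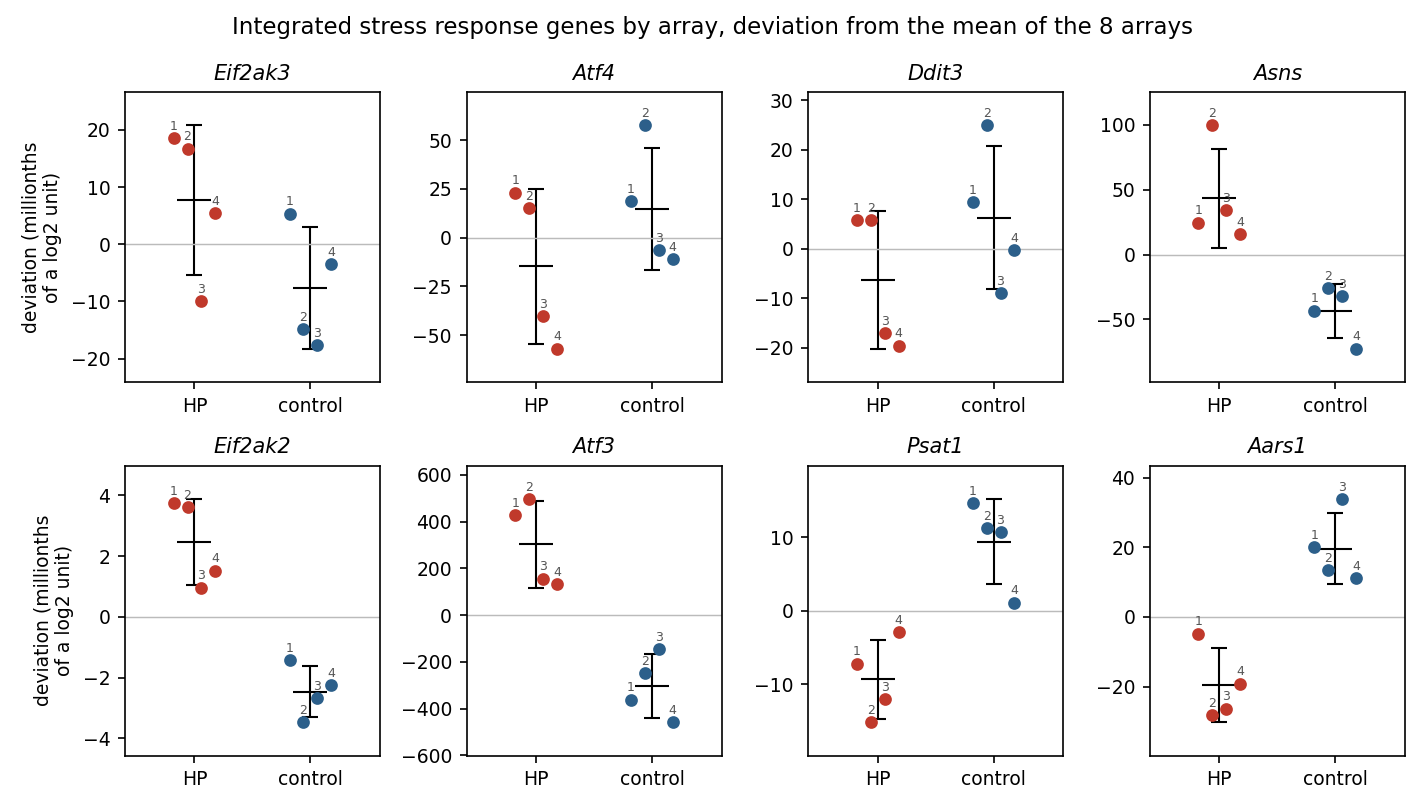
Deviation from the mean of the 8 arrays, in millionths of a log2 unit, of 8 genes of the integrated stress response, with 1 numbered point for each array and the mean and SD of each diet as bars. The scale differs between panels. Asns, Eif2ak2 and Atf3 lay above control and Psat1 and Aars1 below it, while Eif2ak3, Atf4 and Ddit3 overlapped (Asns and Eif2ak2 turned sign after quantile normalization, and Eif2ak2 and Eif2ak3 after centring of the arrays).

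Other ER folding, translocation and degradation genes gave 2 probe sets that rose, 2.86% (2.95% of all), and 1 that fell, 1.43% (1.13% of all), among 70 (43 of 45 genes), with a median standardized difference of -0.13. Pdia5, a disulfide isomerase, was at 3.63, 3.39, 2.93 and 5.63 in HP kidneys, against -3.15, -4.41, -3.12 and -4.92 in control kidneys, a standardized difference of 7.35 (adjusted p = 0.00666 by limma). It passed without any 1 array, but its difference of 7.79 became -53.3 after centring (adjusted p = 0.975 by limma) and 0 after quantile normalization. Serpinh1, the collagen chaperone HSP47, was at 93, 53.4, 10.9 and 46.7 in HP kidneys, against -48, -32.6, -79.7 and -43.8 in control kidneys (adjusted p = 0.0353 by limma, lost without 1 array in 7 of 8 cases). Its other probe set was at a standardized difference of 0.09. Tmbim6, the ER membrane protein BAX inhibitor-1, fell in 1 of its 2 probe sets (standardized difference -5.45, adjusted p = 0.0372 by limma, lost without any 1 array) and was at -4.51 in the other (adjusted p = 0.0503). Xbp1, the transcription factor spliced by IRE1, was at 0.92 (adjusted p = 0.589 by limma).

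Other heat shock proteins and co-chaperones, 69 probe sets of 49 genes, gave no call by limma, with 0 higher (9.53% of all) and 13 lower at an unadjusted p under 0.05, 18.8% (9.45% of all), and 3 lower by rank products, 4.35% (2.31% of all). Their median standardized difference was -0.54, and 52 of the 69 means were below control. Hspa1a, the stress-inducible cytosolic HSP70, was at 0.75 (adjusted p = 0.621 by limma), and it is nearly identical to Hspa1b, so the 2 cannot be separated with certainty on this array.

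The kidneys of the HP diet also differed in the markers of other cells. Over all probe sets, limma called 2.95% higher and 1.13% lower at an adjusted p under 0.05. Of 18 probe sets of macrophage markers, 12 rose, with a mean level over the list of 7.51353 to 7.51424 in HP arrays, against 7.51260 to 7.51281 in control arrays, and Ptprc and 1 of 2 probe sets of Aif1 had the smallest p. Of the same 18, 2 means were below control. At an unadjusted p under 0.05 by limma, 15 were higher (9.53% of all) and 1 was lower (9.45% of all). Of 12 probe sets of fibroblast markers, 8 rose, with a mean level of 8.49402 to 8.49426 in HP arrays, against 8.49308 to 8.49332 in control arrays, and Col3a1 and Dcn had the smallest p. Of 11 probe sets of muscle markers, 1 rose (Tagln). Markers of the proximal tubule (0 of 13 passed), of the thick limb and distal nephron (0 of 5) and of podocytes (0 of 8) did not pass. The mean level of the proximal tubule list was 11.21564 to 11.21566 in HP arrays, against 11.21565 to 11.21567 in control arrays. Of its 13 probe sets, 3 were lower and 0 higher at an unadjusted p under 0.05 by limma (9.45% and 9.53% of all). Rank products called 1 lower (2.31% of all) and 0 higher (3.40% of all). The proximal tubule markers had a median standardized difference of -1.21, beside -0.96 for the ER genes. The part of these cells in the values of the heat shock and ER stress genes was not tested. As a sign of RNA quality, the 3' minus 5' value of GAPDH was 0.622540 to 0.622541 in both diets. That of beta-actin was 1.818753 to 1.818768 in HP arrays, against 1.818748 to 1.818758 in control arrays, and that of hexokinase was 0.272592 to 0.272597 in HP arrays, against 0.272587 to 0.272592 in control arrays. The HP means were 6 and 3.25 millionths of a log2 unit higher for beta-actin and hexokinase, which is more than the difference of many of the genes above, and the part of RNA quality in those differences was not tested.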

How the data were processed

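Kidney RNA of 8 rats was hybridized to 8 Affymetrix whole-genome rat arrays. The authors summarized the probes with DFW in R and Bioconductor (versions not given in the sources used here) and deposited 1 value for each of 31099 probe sets on a log scale, read as log2. Differences of the log2 values as deposited were tested in R 4.3.3 with limma 3.58.1 (prior degrees of freedom 0.772), for 31042 probe sets without the 57 Affymetrix controls, with no filter on low values, since the table has no detection calls. Adjusted p is by Benjamini-Hochberg over all of them. Permutation tests were exact and two-sided, over the 70 ways to divide the arrays. Rank products followed the methods of the study, with an FDR under 0.05 from 1000 permutations of 16 array pairs, in Python 3.11.15 with numpy 2.4.6 and pandas 2.3.3. The precision is limited by the 4 arrays for each diet.

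Symbols came from the platform annotation (20826 probe sets with 1 symbol, 436 with several and 9780 with none). Promoters came from RefSeq (GRCr8), and 35 of the 41 measured genes had a window. Probe sets of the list shown with every array are those past the adjusted p of 0.05 and, in each of the groups by place and role, the 3 with the smallest p. From each list of other pathway genes up to 4 called probe sets were given, with every array except for Tmbim6. From each marker list up to 2 called genes were named, without the single arrays. Hspa5, Bag3 and Xbp1, and the genes given by their standardized difference, were added. The genes, lists and promoter elements were chosen with earlier results of these data known. The test was tried on simulated data. The other settings tried were, for limma, no moderation of the variance, a robust trend, weights for arrays, a block for the replicate number and a single probe set per gene. The values were also quantile normalized or median centred, the lowest 25% of probe sets by mean were dropped, rank products were run, and each array was left out in turn. Counts by place and by promoter element without single arrays and after centring were added after the data had been seen.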

Additional observations from a re-analysis of the deposited data

Results flagged for a closer look

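Among 118 groups of 4 arrays (59 probe sets in 2 diets), 4 held an array far from the other 3, in deviations from the mean of the 8 arrays in millionths of a log2 unit. Chance marks about 1 in 20 groups. The HP replicate 2 of Hspa2 was the highest of its diet at 17.2, with the next at -4.09. The control replicate 2 of Creld2 was the highest of its diet at 29, with the next at 11.8, and without it the adjusted p of Creld2 by limma was 0.238. The control replicate 4 of Edem1 was the highest of its diet at 83.6, with the next at -11.7. The control replicate 3 of Hspb8 was the lowest of its diet at -3.55, with the next at 1.13.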

How the results depend on the processing

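No probe set of the list was higher by limma under any alternative, and rank products called 1 (Asns). The count of lower ones, 1 in the report, was 0 without moderation, 0 with the replicate block, 0 after median centring, 7 after quantile normalization, 6 by rank products and 0 to 1 with each array left out. With each array left out, limma called 339 to 672 of all probe sets higher and 79 to 219 lower, against 915 and 350. Calls lost without 1 array were thus not particular to these genes. After quantile normalization 6 of the 7 had an SD within groups of 0, 37 of the 59 differences were 0 and 24.8% of all probe sets were called lower, so medians of the standardized difference are not given there. The cytosolic median ran from -1.20 to -0.67 and the ER median from -1.28 to -0.69 with each array left out. Of the 59 differences, 14 turned sign after centring and 6 after quantile normalization, and among the 18 probe sets given with every array by rule these were Hspb1 (-175 after quantile normalization, -58.7 after centring), Asns (-136 after quantile normalization) and Eif2ak3 (-45.7 after centring). Centring moved the median difference of all probe sets from -0.224 to -61.3 millionths of a log2 unit and quantile normalization to -8.89. All members called by rank products were among the 8 with a difference of over 30 millionths. Arrays with the same replicate number in both diets had correlations of 0.121, 0.0887, 0.0626 and 0.00148, and 3 of 4 HP arrays correlated best with the control array of their number (HP replicate 4 with control replicate 3), so a pairing was neither given by the labels nor clear in the data. With the replicate number as a block, all probe sets called higher numbered 254, against 915, those lower 115, against 350, Dnajc3 had an adjusted p of 0.139, and none of the 7 called probe sets of the other pathway lists, Pdia5 included, passed (0.0625 to 0.154). Small differences limit these values: the median absolute difference over all probe sets was 1.53e-06, and 4 rats for each diet leave the calls dependent on single arrays.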

Other observations

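Of the other co-chaperones, Grpel1, the nucleotide exchange factor of mitochondrial HSP70 in the mitochondrial import motor, was at -1.86, -1.51, -0.986 and -1.47 in HP kidneys, against 1.91, 0.0138, 2.67 and 1.21 in control kidneys. These are deviations from the mean of the 8 arrays in millionths of a log2 unit. The diets did not overlap, and its standardized difference of -3.47 had an adjusted p of 0.055 by limma (0.0442 to 0.135 with each array left out in turn). Among immediate early genes, none of 11 probe sets passed limma. At an unadjusted p under 0.05 by limma, 3 were higher, 27.3% (9.53% of all), and 2 lower, 18.2% (9.45% of all). Rank products called 4 higher, 36.4% (3.40% of all), and 1 lower, 9.09% (2.31% of all). Grpel1 was picked after its values were seen.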
